A study of Mus musculus with 34 samples.

Results

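Many genes can be read from more than one start, and 3761 of 21853 protein-coding genes of the GENCODE M21 annotation of mm10 (17.2%) had annotated coding transcripts whose most upstream and most downstream 5′ ends lay 10 kb or more apart. These 3761 genes and their 7522 ends were examined here for trimethylation of lysine 4 of histone H3 (H3K4me3), measured by CUT&RUN, in which an antibody and protein A fused to micrococcal nuclease release the DNA fragments around a chromatin mark. The rule used the annotation alone and no measured value. The ends of a gene were 33.7 kb apart at the median, with quartiles at 17.8 and 80.9 kb, and the widest pair belonged to Fgfr2 at 2861 kb. The median gene had 4 annotated coding 5′ ends and Tcf4, with 44, had the most.

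The cells were villus cells scraped from the normal-appearing small intestine of C57BL/6J mice, with 2 libraries from the wild type and 2 from ApcMin/+ mice, which carry 1 mutant Apc allele in all cells and develop intestinal tumours. The labels give an age of 5 weeks and the study's methods 6 weeks. The tracks rest on 1430000 and 4790000 tags in wild type and on 3700000 and 5470000 in ApcMin/+. Wherever 4 values are given below, the first 2 belong to replicates 1 and 2 of wild type and the last 2 to those of ApcMin/+. All 14 epithelial markers examined reached the minimum signal used below as a mean of the 4 libraries, against 1 of 14 immune markers (Coro1a), 0 of 14 of mesenchyme, endothelium and muscle and 0 of 10 of neurons and glia. ApcMin/+ replicate 1 stood apart from the other 3 libraries, with a summed epithelial marker signal of 321.5 against 49.0 to 95.7. The ratios of mean signal between the genotypes and the counts of ends and genes that passed a test are therefore also given without it. Other differences between the genotypes are given with all 4 libraries.

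H3K4me3 marks the nucleosomes beside a start of transcription, so it shows which of the possible starts of a gene is open in a tissue even though all of them are present in the DNA. An alternative promoter can change the tissue in which a gene is read, or it can give a protein with another N-terminus when it lies beyond the first start codon. In the intestine the nuclear receptor gene Hnf4a and the aminopeptidase gene Anpep are textbook cases of genes with promoters used by some tissues and not by others. The values below are the mean coverage within 1000 bp of an end, scaled by the authors to 10000000 tags a library. An end was called in use where the mean of the 4 libraries was at least 2, which corresponds to 5.72, 19.1, 14.8 and 21.9 fragments by library. In bulk tissue, fewer cells with an open end and less H3K4me3 in each cell cannot be told apart.

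The DNA before the ends of 6 genes is shown first, because it gives both kinds of choice. In the nuclear receptor genes Thrb and Pparg only the upstream end was in use, in Pde4dip, Txnrd1 and Psma6 only the downstream end, and in Hnf4a both. Each line is the stretch of 150 bases just before the end in mm10 (GRCm38.p6), read in the direction of the gene, and capitals mark CpG dinucleotides. All 12 stretches lie outside annotated exons, and each downstream end lies within an intron of longer transcripts of its gene.
Thrb upstream, chr14:17660111-17660260, plus strand: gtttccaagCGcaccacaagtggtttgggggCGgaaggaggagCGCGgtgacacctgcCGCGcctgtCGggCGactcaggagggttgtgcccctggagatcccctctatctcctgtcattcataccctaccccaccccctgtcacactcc
Thrb downstream, chr14:17981379-17981528, plus strand: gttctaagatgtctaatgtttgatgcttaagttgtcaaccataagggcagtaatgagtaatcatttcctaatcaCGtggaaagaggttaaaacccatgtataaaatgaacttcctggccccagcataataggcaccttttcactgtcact
Pparg upstream, chr6:115360801-115360950, plus strand: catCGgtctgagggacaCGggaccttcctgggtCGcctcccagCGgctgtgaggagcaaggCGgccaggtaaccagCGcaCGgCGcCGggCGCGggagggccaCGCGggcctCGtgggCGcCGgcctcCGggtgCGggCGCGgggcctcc
Pparg downstream, chr6:115421916-115422065, plus strand: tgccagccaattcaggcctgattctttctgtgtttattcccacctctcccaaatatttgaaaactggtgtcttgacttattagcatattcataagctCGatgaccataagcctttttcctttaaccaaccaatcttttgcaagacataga
Pde4dip upstream, chr3:97888708-97888857, minus strand: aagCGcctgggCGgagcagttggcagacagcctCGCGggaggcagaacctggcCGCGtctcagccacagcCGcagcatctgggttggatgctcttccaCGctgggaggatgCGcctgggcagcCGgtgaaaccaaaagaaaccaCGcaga
Pde4dip downstream, chr3:97768010-97768159, minus strand: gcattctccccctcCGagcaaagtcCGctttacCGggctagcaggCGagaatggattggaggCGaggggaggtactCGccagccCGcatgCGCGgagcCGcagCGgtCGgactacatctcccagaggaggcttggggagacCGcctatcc
Txnrd1 upstream, chr10:82833801-82833950, plus strand: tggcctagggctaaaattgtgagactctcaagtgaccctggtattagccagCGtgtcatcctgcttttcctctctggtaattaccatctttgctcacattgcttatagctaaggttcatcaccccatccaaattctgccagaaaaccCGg
Txnrd1 downstream, chr10:82860151-82860300, plus strand: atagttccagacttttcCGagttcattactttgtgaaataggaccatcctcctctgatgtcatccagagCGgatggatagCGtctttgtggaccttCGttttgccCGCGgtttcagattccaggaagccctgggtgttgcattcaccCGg
Psma6 upstream, chr12:55384072-55384221, plus strand: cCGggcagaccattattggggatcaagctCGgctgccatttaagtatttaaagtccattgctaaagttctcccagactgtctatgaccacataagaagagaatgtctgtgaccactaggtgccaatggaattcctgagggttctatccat
Psma6 downstream, chr12:55398625-55398774, plus strand: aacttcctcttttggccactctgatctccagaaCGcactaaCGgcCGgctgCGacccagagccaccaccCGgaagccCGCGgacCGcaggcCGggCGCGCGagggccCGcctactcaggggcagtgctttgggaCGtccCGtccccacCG
Hnf4a upstream, chr2:163506658-163506807, plus strand: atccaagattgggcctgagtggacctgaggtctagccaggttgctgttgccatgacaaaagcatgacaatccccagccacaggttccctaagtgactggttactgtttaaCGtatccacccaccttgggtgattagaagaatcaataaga
Hnf4a downstream, chr2:163549933-163550082, plus strand: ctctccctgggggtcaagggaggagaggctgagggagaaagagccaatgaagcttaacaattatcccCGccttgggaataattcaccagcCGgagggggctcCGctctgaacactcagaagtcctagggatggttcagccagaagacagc
The stretch before the open end held 8 and 20 CpGs in Thrb and Pparg, against 1 before the closed end of each. In Txnrd1 and Psma6, open downstream, it held 7 and 16 against 2 before each closed end. Pde4dip did not differ in this way, since 11 CpGs stood before its closed upstream end and 13 before its open downstream end. Both stretches of Hnf4a were poor in CpGs, with 1 and 3, and yet both ends carried H3K4me3. The 3 downstream-led genes are those with the lowest balance that met the rule for printing, and Thrb, Pparg and Hnf4a were added after their values were seen, because no gene among those most strongly led by the upstream end met that rule.

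Among genes with an end in use, the upstream end alone was the most frequent choice. Only the upstream end was in use in 1819 genes (48.4%), only the downstream end in 176 (4.68%), both in 122 (3.24%) and neither in 1644 (43.7%). Without ApcMin/+ replicate 1 the share with both was 2.07%. Upstream ends were thus in use in 51.6% of the genes and downstream ends in 7.92%. The most upstream end of the other 18092 protein-coding genes was in use in 44.3%. As a control, 2864 points halfway between the ends of a gene and more than 3000 bp from any annotated 5′ end were measured, of which 18 (0.628%) reached the minimum.

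**Figure D1:**
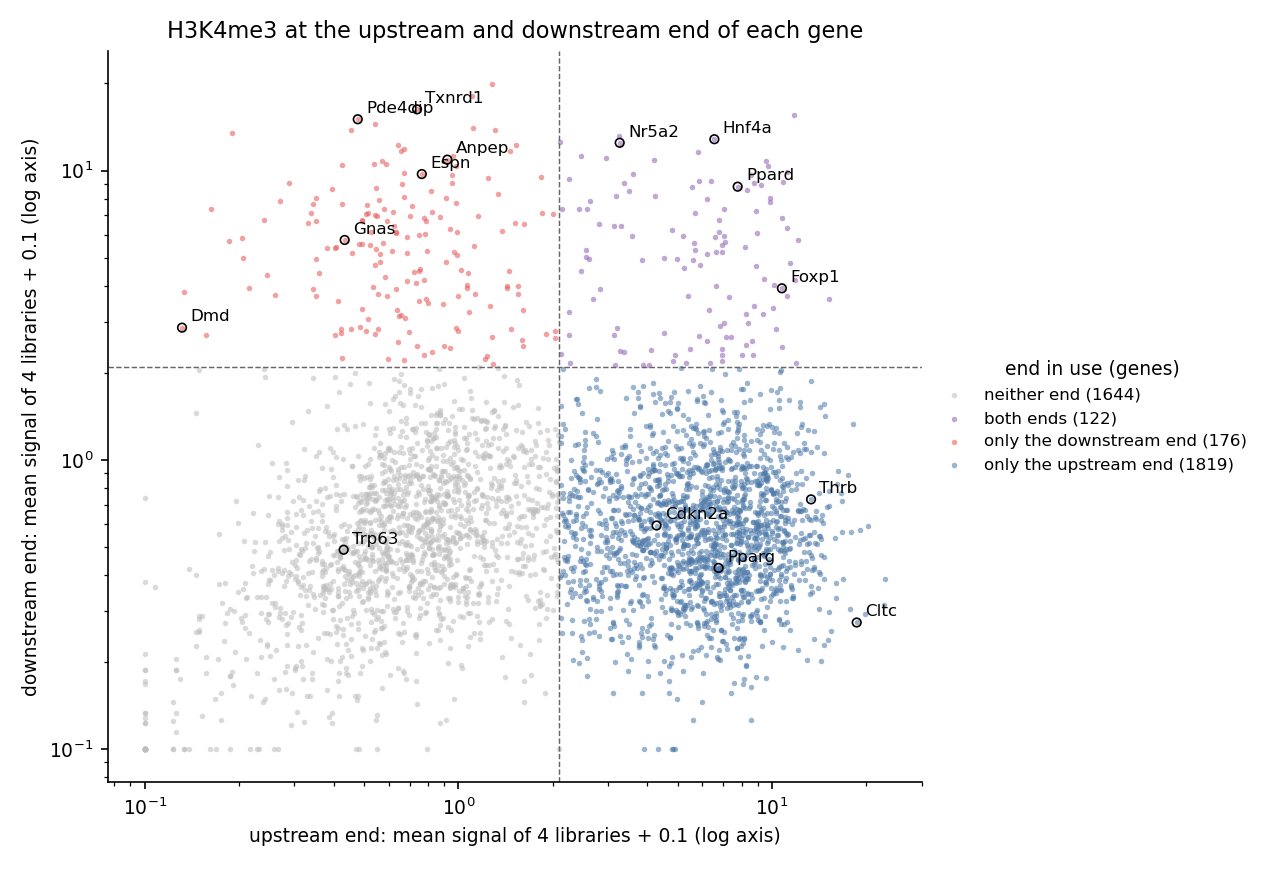
Each point is 1 of the 3761 genes, with the mean signal of the 4 libraries within 1000 bp of its upstream end on the horizontal axis and of its downstream end on the vertical axis, both on log axes after adding 0.1. Dashed lines mark the minimum of 2, and the 1819 genes with only the upstream end in use fill the lower right, whereas the 176 with only the downstream end and the 122 with both lie above the horizontal line.

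Among genes in use the order was the same when the minimum was applied to each library alone, with more genes open only downstream than at both ends. Only the upstream end reached it in 43.1% and 38.5% of the genes in the wild-type libraries and in 51.1% and 45.8% in the ApcMin/+ libraries. Only the downstream end reached it in 6.59% and 3.67% of the genes in the wild-type libraries and in 5.08% and 4.79% in the ApcMin/+ libraries. Both ends reached it in 4.04%, 1.41%, 4.79% and 2.74% of the genes, in the same order. The share with only the upstream end was higher in both ApcMin/+ libraries than in both wild-type libraries (48.4% ± 3.72 against 40.8% ± 3.25, SD, n = 2 each), with p = 0.33 in a two-sided exact permutation test, the smallest value that 2 libraries against 2 can give. The other 3 shares overlapped between the genotypes, with exact permutation p-values of 0.67 to 1. The most upstream end of the other protein-coding genes also reached the minimum more often in both ApcMin/+ libraries than in both wild-type libraries. It did so in 41.5% and 35.8% of those genes in wild type and in 47.4% and 42.6% in ApcMin/+. The higher upstream share was thus not particular to the genes examined here. Gene by gene, 1229 of the 1819 upstream-only genes, 93 of the 176 downstream-only genes and 44 of the 122 genes with both ends fell into that same class in all 4 libraries.

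Whether a downstream end was in use went with how the annotation describes it. In 1764 genes (46.9%) the most downstream end rests only on transcripts that GENCODE tags as having an incomplete 5′ end (mRNA_start_NF), so that the end is where the evidence stops and not a mapped start. Of these ends 15 (0.850%) were in use, beside 0.628% of the midpoints. Of the 1997 complete downstream ends 283 (14.2%) were in use. The annotated position differed as well, as 94.2% of the incomplete ends lay within an exon of a longer transcript of the gene, against 38.3% of the complete ends, of which 61.5% lay within an intron.

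The average profiles showed the same order. Around the upstream ends the mean signal peaked 125 bp inside the gene, at 5.06 and 3.24 in wild type and at 12.0 and 4.23 in ApcMin/+. The complete downstream ends peaked at the same distance, at 1.82, 1.25, 3.78 and 1.67. Incomplete downstream ends stayed between 0.501 and 0.937 at their highest point, and the midpoints between 0.468 and 0.510.

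**Figure D2:**
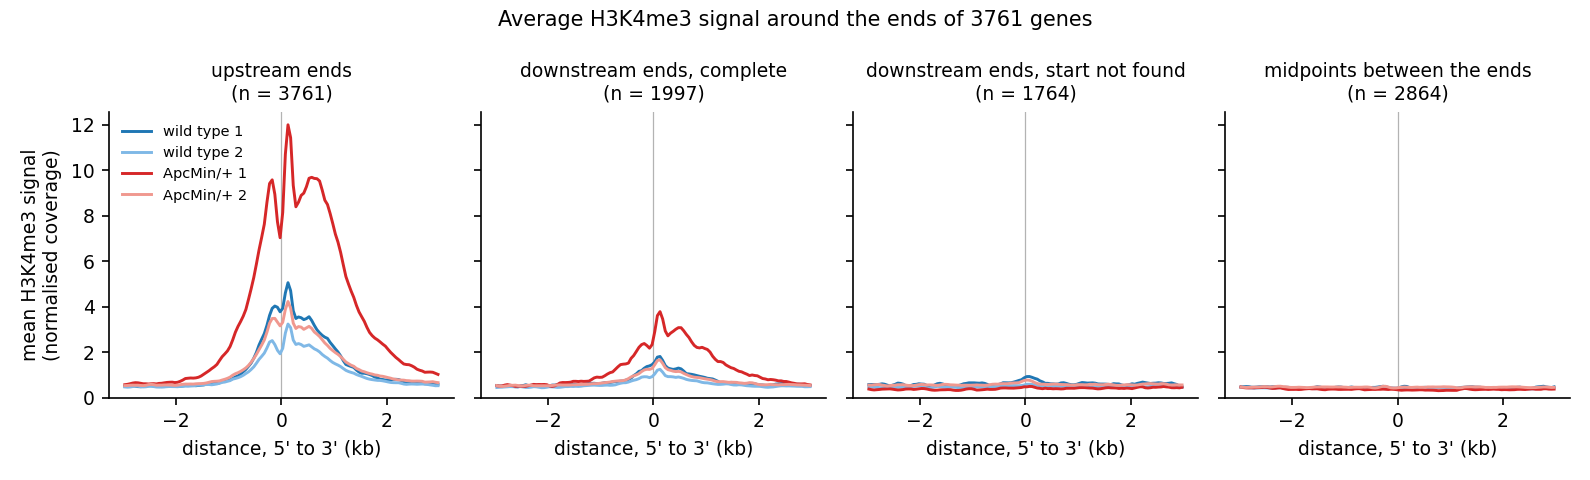
Mean H3K4me3 signal (normalised coverage, vertical axis) in bins of 50 bp against the distance from the place named above each panel, 5′ to 3′ (horizontal axis, kb), with 1 line per library. The upstream ends peak between 3.24 and 12.0 and the complete downstream ends between 1.25 and 3.78. The incomplete downstream ends have a small peak, 1.22 to 1.75 times the level at the edges, and the midpoints are nearly flat.

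Averaged over all genes, the upstream ends carried a signal of 2.80 and 1.89 in wild type and of 7.51 and 2.53 in ApcMin/+. The downstream ends carried 0.896, 0.669, 1.38 and 0.836. ApcMin/+ replicate 1 was the highest at both kinds of end and the lowest at the midpoints, at 0.356 against 0.430 to 0.467, while ApcMin/+ replicate 2 lay between the wild-type libraries at both kinds of end and was the highest at the midpoints. The genotypes therefore overlapped at both kinds of end, with p = 0.67 in each exact permutation test and group means of 5.02 ± 3.52 against 2.35 ± 0.647 upstream and 1.11 ± 0.385 against 0.782 ± 0.160 downstream (SD, n = 2 each). Without ApcMin/+ replicate 1 the log2 ratio of ApcMin/+ to wild type fell from 1.10 to 0.11 at the upstream ends and from 0.50 to 0.10 at the downstream ends. The downstream ends held 16% and 14.1% of the signal of both ends above the midpoint level in wild type and 12.5% and 15.2% in ApcMin/+ (exact permutation p = 0.67). ApcMin/+ replicate 1, highest in signal, had the lowest such share.

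**Figure D3:**
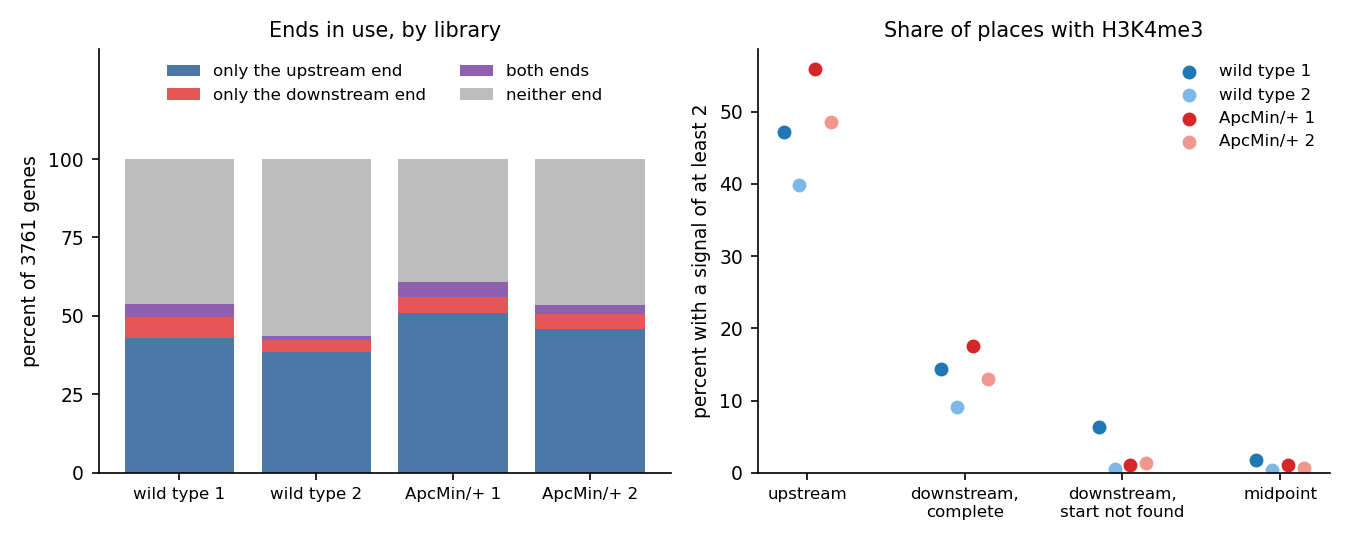
The left panel gives the percent of the 3761 genes (vertical axis) with only the upstream, only the downstream, both or neither end at a signal of at least 2 in each library, and the right panel the percent of each kind of place that reached it, with 1 point per library. Upstream ends lie between 39.9% and 55.9%, complete downstream ends between 9.06% and 17.6%, and incomplete downstream ends and midpoints at or below 6.35%.

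A start beyond the start codon of the upstream transcript leaves out the first part of the protein. Of the 283 complete downstream ends in use, 140 (49.5%) lay beyond it, and 107 (37.8%) belonged to transcripts that share a start codon with those of the upstream end. Among the 1714 complete downstream ends that were not in use the shares were 47.5% and 43.6%. No test was made of this difference.

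CpG content went with the end in use. The ratio of observed to expected CpGs within 250 bp of an end is high in CpG islands and low in most of the mouse genome, where methylated CpGs have been lost. In genes with only the upstream end in use its median was 0.84 at that end and 0.27 at the downstream end. In genes with only the downstream end in use the order turned, with 0.33 upstream and 0.71 downstream. Genes with both ends in use had 0.79 and 0.55, those with neither 0.41 and 0.26, and the midpoints 0.17. At a ratio of at least 0.6, 158 of 291 complete downstream ends (54.3%) were in use, and below it 125 of 1706 (7.33%). These are descriptions over genes, which are not replicates.

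**Figure D4:**
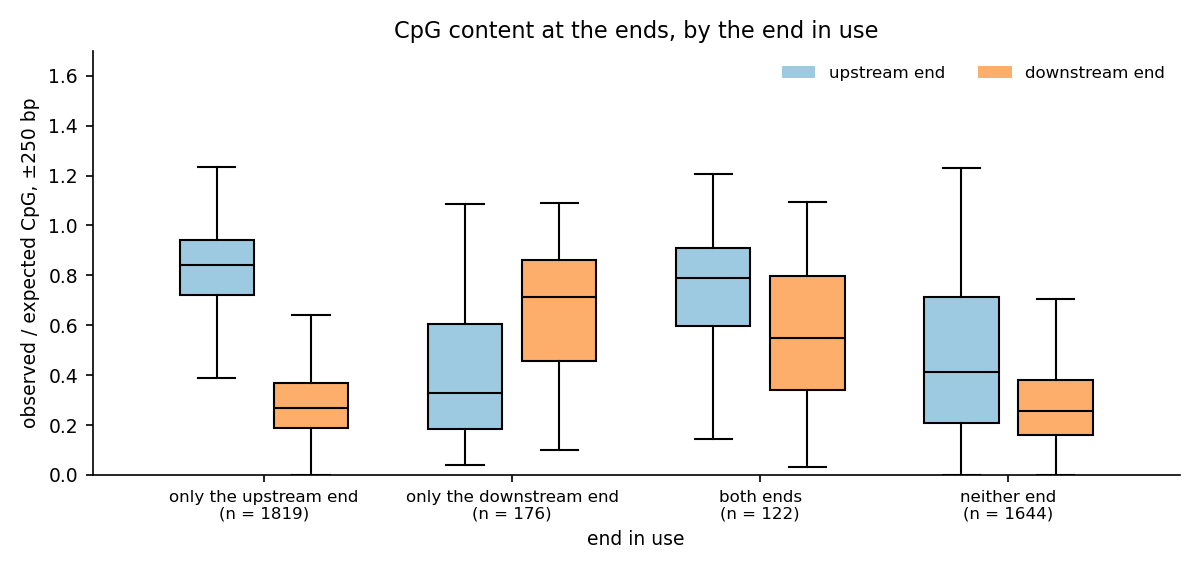
Boxes give the quartiles and the median, and whiskers the range within 1.5 box lengths, of the ratio of observed to expected CpGs within 250 bp of the upstream and the downstream end (vertical axis) for the 4 classes of genes. Upstream ends are higher in CpGs than downstream ends, except in the 176 genes with only the downstream end in use.

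The most downstream and the most upstream end are not the only annotated starts. Counting every annotated coding 5′ end of the 3761 genes, 2312 genes had at least 1 end in use. The strongest of them lay within 1000 bp of the upstream end in 1819 of these genes (78.7%), within 1000 bp of the downstream end in 213 (9.21%) and between them in 280 (12.1%). Of the 1644 genes with neither outer end in use, 173 had an end between them that was. Vdr, the vitamin D receptor gene, was 1 of these, with 9.30 and 3.92 in wild type and 31.5 and 5.55 in ApcMin/+ at an end 2320 bp from the upstream one, which itself had 0.859, 0.104, 0.184 and 0.0969. Ctnnb1, which codes for beta-catenin, was another, and its strongest end, 4602 bp from the upstream one, had 3.22, 3.53, 6.97 and 2.36. Both genes were named after their values were seen.

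Among the regulators of the epithelium, both ends were open in some nuclear receptor genes, by the mean of the 4 libraries. Of 48 transcription factors and nuclear receptors of the intestine that were listed, 20 met the rule, and the downstream end was in use in 8 of them (40.0%), against 7.92% of all 3761 genes. Only 4 of the 20 have an incomplete downstream end, against 46.9% of all, and among complete downstream ends of all genes 14.2% were in use. The upstream end alone was in use in 9 and neither in 3. The 6 with both ends in use were all nuclear receptors, namely Hnf4a, Hnf4g, Nr1h4, Nr5a2, Ppard and Thra. Of these, Hnf4a, Hnf4g and Ppard reached the minimum at both ends in all 4 libraries. Nr5a2 and Nr1h4 reached it upstream only in ApcMin/+ replicate 1, and Thra downstream only in the ApcMin/+ libraries. Among other listed nuclear receptors, Vdr, Nr3c1 and Rora had neither end in use, and Pparg, Rxra, Esrrg and Thrb only the upstream end. Of the 20 genes, 2 had only the downstream end in use, of which Ppargc1a, a coactivator gene of mitochondrial biogenesis, was 1.

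Hnf4a codes for a nuclear receptor that keeps enterocytes and hepatocytes differentiated, and its P2 and P1 promoters give proteins with different N-termini. Its upstream end (chr 2, 163506808, plus strand) had 2.79 and 2.91 in wild type and 15.8 and 4.28 in ApcMin/+. Its downstream end, 43275 bp further on, had 7.89 and 3.12 in wild type and 33.6 and 6.38 in ApcMin/+. The downstream end was higher in all 4 libraries. The balance, which is log2(upstream signal + 1) minus log2(downstream signal + 1), was -0.71 ± 0.53 (SD, n = 4). A further annotated end 40379 bp from the upstream one had a mean of 9.66, so more than 1 of the inner starts carried the mark. Hnf4g, its paralog, had 3.22, 3.81, 14.5 and 3.59 upstream and 4.88, 2.76, 24.1 and 4.65 downstream, 126120 bp apart. Neither end of Hnf4g led in all libraries, since the downstream end was the higher in wild-type replicate 1 and both ApcMin/+ libraries and the lower in wild-type replicate 2.

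Nr5a2, whose product LRH-1 acts in crypt renewal and steroid synthesis in the gut, was led by the downstream end. Upstream it had 1.05, 0.677, 9.85 and 1.10, so that only ApcMin/+ replicate 1 reached 2 there. Downstream, 11275 bp further on, it had 6.35, 4.82, 31.9 and 6.40. Its balance was -1.77 ± 0.11 (SD, n = 4) and lay between -1.85 and -1.60 in the single libraries. Ppard, a fatty acid receptor, had 6.28, 2.61, 18 and 3.78 at its upstream and 6.62, 5.18, 17.1 and 5.93 at its downstream end. Nr1h4, the bile acid receptor FXR, was low at both, with 1.05, 1.88, 4.93 and 1.56 upstream and 1.74, 2.3, 11.3 and 2.32 downstream. Thra leaned the other way in all 4 libraries, with 5.58, 2.32, 13.0 and 3.48 upstream and 1.68, 1.56, 3.93 and 2.74 at a downstream end 11775 bp away, which is an incomplete one.

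In Thrb and Pparg, in contrast, the upstream end was in use and the most downstream end was not. Thrb, the other thyroid hormone receptor gene, had 9.21, 5.44, 30.6 and 7.59 upstream and 1.39, 0.387, 0.283 and 0.457 at the downstream end 321268 bp away. Pparg had 7.94, 3.14, 11.7 and 3.82 upstream, and annotated starts 1341 and 1398 bp further on had means of 7.87 and 7.61, whereas the downstream end 61115 bp away, the start of the adipocyte form PPARγ2, had 0.348, 0.534, 0.0111 and 0.399.

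**Figure D5:**
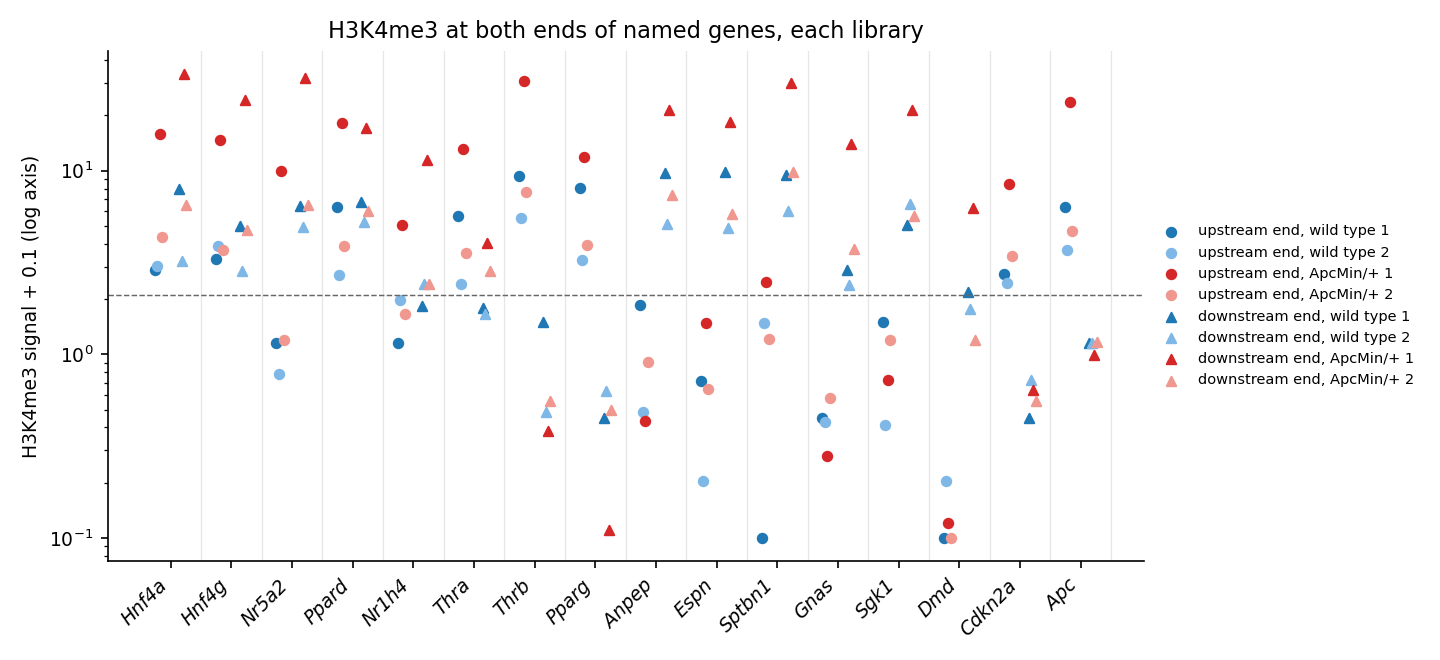
H3K4me3 signal plus 0.1 (vertical log axis) at the upstream end (circles) and the downstream end (triangles) of genes named in the text, with 1 symbol per library and end, and a dashed line at the minimum of 2. Both ends of Hnf4a, Hnf4g and Ppard lie above the line in all 4 libraries, while in Anpep, Espn, Gnas and Sgk1 the triangles do and the circles do not.

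Genes of the Wnt and TGF-beta pathways were mostly in use at the upstream end. Of 45 listed, 15 met the rule, 13 had only the upstream end in use, 2 neither (Ctnnb1 and Nkd1), and 0 the downstream end, beside 48.4% with only the upstream end and 7.92% with the downstream end in use over all 3761 genes. With 15 genes, 0 downstream ends is near that background. Apc, the gene mutated in these mice and the scaffold of the complex that degrades beta-catenin, had 6.28 and 3.61 in wild type and 23.7 and 4.57 in ApcMin/+ at its upstream end. At the downstream end, 26774 bp further on, it had 1.05, 1.06, 0.897 and 1.06, under the minimum in every library. The upstream window of Apc also holds a 5′ end of another gene, so the signal of both cannot be told apart. Gsk3b, Rnf43, Smad3, Bcl9l and Smad4 were in use upstream and not downstream, with means of 13.3, 8.87, 8.4, 7.85 and 5.86 upstream and of 0.315, 0.850, 1.51, 1.65 and 0.280 downstream. Bcl9l reached 3.61 downstream in wild-type replicate 1, there from 10.3 fragments, and 0.791 to 1.31 in the other 3 libraries, and Smad3 reached 2.74 downstream in the same library, from 7.8 fragments. The strongest start of Rnf43, with a mean of 10.9, lay between its outer ends. The downstream end of Gsk3b is an incomplete one, not a mapped start, and its window also holds a 5′ end of another gene. So does the upstream window of Bcl9l.

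Genes of the brush border, cytoskeleton and junctions were mixed. Of 81 listed, 43 met the rule, of which 24 had only the upstream end, 7 only the downstream end, 2 both and 10 neither in use. Over all 3761 genes the shares were 48.4%, 4.68%, 3.24% and 43.7%, in the same order. The downstream end was in use in 20.9% of the 43 genes, against 7.92% of all. The downstream end is an incomplete one in 25 of the 43, against 46.9% of all. Espn, which codes for the actin-bundling protein espin of microvilli, had 9.74, 4.75, 18.3 and 5.70 downstream and 0.619, 0.104, 1.39 and 0.548 at the upstream end 23446 bp before it. Sptbn1, the gene of a spectrin of the membrane skeleton, had 9.32, 5.94, 29.8 and 9.76 downstream and 0 to 2.37 upstream, in a window that also holds a 5′ end of another gene. Their downstream ends were higher in all 4 libraries. Myo6, Svil, Epb41 and Actn4 were in use upstream and not downstream, with means of 15.9, 11.2, 9.98 and 9.86 upstream and of 0.274, 0.531, 0.807 and 0.688 downstream. The downstream ends of Svil, Epb41 and Actn4 are incomplete ones, not mapped starts. The strongest start of Svil, with a mean of 14.4, lay between its outer ends, and the upstream window of Epb41 also holds a 5′ end of another gene. The other downstream-only genes of the list were Eps8, Mast4, Palld, Shroom3 and Tjp1, the last of which codes for the tight junction protein ZO-1.

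Of 72 textbook genes with alternative promoters, 54 met the rule, and in 34 of these neither outer end was in use in villus cells. Over all 3761 genes neither end was in use in 43.7%. The downstream end was in use in 10 (18.5%), against 7.92% of all 3761 genes. An incomplete downstream end is found in 14 of the 54, against 46.9% of all, and 14.2% of all complete downstream ends were in use. The downstream end was in use alone in 6, which include Dmd, Gnas, Nfib, Sgk1 and Slc2a9, and with the upstream end in Crem, Foxp1, Hnf4a and Lmna. Gnas codes for the stimulatory G protein subunit Gsα from its downstream exons and for the neuroendocrine protein Nesp55 from its upstream exon. Its downstream end had 2.79 and 2.28 in wild type and 13.9 and 3.66 in ApcMin/+, and its upstream end, 45967 bp before it, 0.178 to 0.480. Dystrophin is made full length in muscle from upstream promoters of Dmd and as the short form Dp71 in most other tissues from a promoter near the end of the gene. Dmd had 2.09, 1.67, 6.20 and 1.10 at a downstream end 2099510 bp from the upstream one, which had 0 to 0.104. The downstream signal of Dmd rests on few fragments, 6.0 in wild-type replicate 1 and 12 in ApcMin/+ replicate 2, and it reached 2 in 2 of 4 libraries.

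Further genes of that list differed in which end was in use. Cdkn2a codes for p19Arf from an upstream and for p16Ink4a from a downstream first exon, 12461 bp apart. The upstream end had 2.65, 2.34, 8.41 and 3.33 and the downstream end 0.349, 0.627, 0.540 and 0.457. Sgk1, a kinase of sodium transport, had 4.94, 6.47, 21.4 and 5.55 downstream and 0.313 to 1.39 at an upstream end 112726 bp away, and Nfib had 2.28 to 19.8 downstream and 0 to 0.730 upstream. Foxp1 and Crem leaned upstream, with means of 10.7 and 10.0 there. Downstream, Foxp1 had 1.13, 0.835, 10.3 and 2.99 and Crem 1.39, 1.93, 10.5 and 1.92, so both wild-type libraries lay under the minimum and the downstream end of Crem reached it only in ApcMin/+ replicate 1. In Trp63, whose upstream TA and downstream ΔN starts serve germ cells and stratified epithelia, no value exceeded 0.618 at either end. Runx1 had means of 0.992 and 1.63 at its outer ends and of 2.56 at an end 128821 bp inside. Dnmt3a had a mean of 1.88 at its upstream end, from 2.79, 1.36, 2.23 and 1.16 by library. Tcf7 and Lef1 did not meet the rule.

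Anpep, added after its values were seen, codes for aminopeptidase N, which is read from a distal promoter in myeloid cells and from a proximal one in intestinal epithelium. The most downstream end (chr 7, 79842352, minus strand) had 9.63 and 5.03 in wild type and 21.3 and 7.25 in ApcMin/+. The most upstream end, 18707 bp away, had 1.77, 0.383, 0.336 and 0.803. The most downstream end was thus higher in all 4 libraries, with 27.6, 48.1, 158.1 and 79.4 fragments there against at most 8.8 at the most upstream end. Annotated ends 12849 and 12876 bp from the most upstream one had means of 3.41 and 3.50, also above the minimum. Which annotated end is the myeloid promoter was not tested.

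Neuronal genes gave a contrast, as 46 of the 48 neuronal synapse and channel genes that met the rule had neither end in use, and Dlg2 and Tenm3 the upstream end, with means of 4.02 and 2.03.

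The balance described each gene in use by 1 value. Over the 2117 genes with at least 1 end in use, the upstream end led by 1 or more (log2) in 1742, the downstream end in 165, and 210 lay between. The balance had the same sign in all 4 libraries in 2012 genes (95.0%), above 0 in 1818 and below 0 in 194. The genes were chosen by the mean of these same libraries, and 1819 and 176 of them are under the minimum at 1 end by definition. The leads and the constant sign thus largely follow from that choice and cannot be read as a result. The median balance was 1.68 and 1.30 in wild type and 3.12 and 1.53 in ApcMin/+. ApcMin/+ replicate 1 was again the highest and the genotypes overlapped (exact permutation p = 0.67). In the 122 genes with both ends in use the median was 0.24 and 0.19 in wild type and 0.19 and 0.19 in ApcMin/+. These genes were chosen by a high mean at both ends, the values that make up the balance. A median near 0 therefore cannot be read as a result. ApcMin/+ replicate 1 had mean signals of 13.7 upstream and 12.4 downstream in them, against 2.55 to 4.33 in the other libraries.

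The genes led most by the downstream end, by the rule on windows free of other genes, were Pde4dip, Hs3st1, Arhgap32, Txnrd1, Lrrfip1 and Psma6. Arhgap32, a gene of a GTPase-activating protein, had 7.32, 4.03, 38.5 and 7.71 downstream and 0.270 to 0.606 at the upstream end 108456 bp before it. Pde4dip codes for myomegalin, a protein of centrosomes and the Golgi, and had 13.7, 8.07, 28.5 and 9.5 downstream against 0.348, 0.209, 0.405 and 0.547 upstream. Its balance of -3.38 ± 0.74 (SD, n = 4) was the lowest. Txnrd1, the cytosolic thioredoxin reductase gene, had 8.70, 6.12, 43.1 and 6.74 downstream and 0.486 to 0.756 upstream, and further annotated starts 25228 to 25308 bp from the upstream end had means of 11.9 to 12.4. Psma6, a proteasome subunit gene, had 8.08, 5.67, 27.8 and 7.07 downstream and 0.348 to 0.709 at the upstream end 14553 bp before it. Hs3st1 and Lrrfip1 had balances of -3.09 ± 1.18 and -2.90 ± 1.35.

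The genes led most by the upstream end were Cltc, Emsy, Camk2d, Ube3a, Ankhd1 and B3galnt2. Cltc, the clathrin heavy chain gene, had 17.4, 7.13, 39.2 and 10.4 upstream and 0 to 0.292 downstream, a balance of 3.79 ± 1.11 (SD, n = 4). Camk2d, a calcium-dependent kinase gene, had 15.7, 7.26, 30.0 and 8.13 upstream, and Ube3a, a ubiquitin ligase gene, 11, 6.59, 33.0 and 9.41. The downstream end of all 6 is an incomplete one inside the gene, with means of 0.121 to 0.414.

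Between the genotypes no end and no balance passed the test. Of 10260 ends with a mean of at least 2 that were tested together with limma on log2(signal + 1), which included the ends of other genes, 0 had an adjusted p under 0.05 (0.0%), and 136 had an unadjusted p under 0.05, of which 24 were upstream and 12 downstream ends of the genes examined here. Both ApcMin/+ libraries lay above both wild-type libraries at 38.7% of all tested ends and below both at 0.175%. The upstream ends (755 of 1941) and the downstream ends (122 of 298) were near that background, with median log2 differences of 0.84 and 0.86 against 0.85 over all ends. When ApcMin/+ replicate 2 was left out, so that the lone ApcMin/+ library was assumed to vary like wild type, 6791 ends were called, and without each of the other 3 libraries 0.

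For the balance, limma called 0 of 2117 genes (0.0%), with 31 at an unadjusted p under 0.05. Both ApcMin/+ libraries had a higher balance than both wild-type libraries in 28.3% of the genes and a lower one in 3.54%. Of the 599 higher genes 582 had only the upstream end in use, and of the 75 lower genes 52 had only the downstream end. In both kinds of gene this is a wider gap between the open and the closed end. ApcMin/+ replicate 1 had the highest signal at open ends, and whether the counts depend on it was not tested. In the 122 genes with both ends in use 13 lay higher and 21 lower. Without ApcMin/+ replicate 2 the count rose to 960 genes, and it was 0 without each of the other 3 libraries.

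The largest differences in balance are given as a description, since they were chosen for their size. The choice also asked for a mean of the 4 libraries of at least 5 at 1 end or both. The genes with a higher balance met this only through the ApcMin/+ libraries, with wild-type upstream means of 1.83 to 2.76. The balance was higher in ApcMin/+ by 1.99 in Srebf2, 1.97 in Map4, 1.96 in Prom1, 1.88 in Fam13b and 1.83 in Sppl2a (adjusted p = 0.811 each, limma). Prom1, a protein of membrane protrusions and a marker of crypt cells, had 1.93 and 1.85 in wild type and 10.8 and 5.49 in ApcMin/+ at its upstream end, and 0.104 to 0.538 downstream. Srebf2, the regulator of cholesterol synthesis, had 3.14, 2.38, 11.4 and 4.28 upstream and 1.79, 1.08, 0.270 and 0.366 at an incomplete downstream end, where the values come from 2 to 10.4 fragments. The downstream ends of all 5 are incomplete.

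The balance was lower in ApcMin/+ by 1.79 in Acer3, 1.69 in Kalrn, 1.6 in Itgb6, 1.51 in Atad1 and 1.48 in Notch1 (adjusted p = 0.811 each, limma). These genes too met the required mean of 5 only through the ApcMin/+ libraries, with wild-type downstream means of 2.29 to 4.36. Acer3, an alkaline ceramidase gene, had 2.44 and 3.55 in wild type and 17 and 7.15 in ApcMin/+ at its downstream end, and 0.270 to 0.695 upstream. Kalrn, a gene known from neurons, was open at its most downstream starts, 418058 and 418099 bp from the first, the last of which had 5.59, 2.76, 22.0 and 5.44. Notch1, the receptor that keeps progenitors from secretory fates, had 2.94, 2.28, 11.3 and 3.46 at a downstream end 12841 bp inside the gene and 0.0537 to 1.42 at its upstream end.

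At the limit of the rule, Slc38a3, with 10002 bp between its ends, had means of 0.800 upstream and 0.665 downstream, and Fpgs, left out at 9960 bp, had 0.811 and 2.28.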

How the data were processed

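H3K4me3 CUT&RUN tracks of 2 wild-type and 2 ApcMin/+ libraries were used, grouped by the genotype in the labels. Per the labels and the study's methods, the authors aligned read pairs to mm10 with Bowtie2, removed duplicates with Picard, kept fragments of 150 to 500 bp and wrote the coverage with HOMER. The deposited values are signal, that is, base-by-base coverage that the authors brought to 10000000 tags a library and adjusted for fragment length, 1 track a library. Because such values are no counts, count models were left out. The number of fragments at an end is its signal times the window length over the signal that 1 tag adds to the track.

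Ends came from transcripts of type protein_coding in GENCODE M21, and sequence from GRCm38.p6. The signal was averaged within 1000 bp, and CpGs were counted within 250 bp. For ends with a mean of at least 2, and for the balance of genes with such an end, log2(signal + 1) was compared by limma 3.58.1 (trend option, R 4.3.3) at a Benjamini-Hochberg adjusted p of 0.05. Single values per library were compared by two-sided exact permutation. The limma tests were tried on simulated data in which libraries of a genotype differed only in depth and in the sampling of fragments. That setting lacks the spread between libraries seen here, so it cannot show what the tests would detect in these data. Named genes were up to 6 of each of 4 gene lists with the highest signal, those of 10 further listed genes that met the rule, the 6 most led by either end and the 5 largest differences in balance each way. Anpep, Dmd, Vdr, Ctnnb1, Nr1h4, Thra, Dlg2 and Tenm3 were added after their values were seen. Some listed genes and 1 list are not reported here. The members and lists were chosen with earlier results of these data known. The study's methods name 2 mice of each genotype, without saying that each library is 1 mouse, so p-values measure the spread between these libraries, which may be technical. Replicate numbers were not treated as pairs, since no source ties equal numbers to a shared batch. Other marks, RNA and the 12-week samples were not used. Python 3.11.15, numpy 2.4.6 and pandas 2.3.3 were used.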

Additional observations from a re-analysis of the deposited data

How the results depend on the processing

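With a minimum mean signal of 1 instead of 2, 6.73% of the genes had only the downstream end in use, 10.3% both and 31.9% neither. With a minimum of 5, 31.8% had only the upstream end, 3.14% only the downstream end, 1.01% both and 64.1% neither. Without the transcripts of incomplete 5′ end, 2416 genes met the rule, of which 36.5% had only the upstream end in use, 7.91% only the downstream end and 6.29% both. Among the 2709 genes whose windows hold no 5′ end of another gene, 42.6% had only the upstream end in use. The upstream end alone remained the most frequent choice among genes in use under each of these settings.

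Leaving out 1 library gave between 0 and 960 calls for the balance and between 0 and 6791 for single ends (limma), with calls only in the fit without ApcMin/+ replicate 2. In that fit the lone ApcMin/+ library was replicate 1, assumed to vary like wild type. Centring each library on its median gave 11 calls among 10260 ends, 5 higher and 6 lower, all at ends of other genes, and 0 for the balance. A replicate block, with 2 pairs of equal number, gave 1 call among the ends and 0 for the balance, with 57 genes at an unadjusted p under 0.05. Deviations of equal numbers correlated at 0.19 over ends and 0.31 over balances.

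The difference in median balance between the genotypes, 0.84 over the genes in use, was -0.024 in the genes with both ends in use, an alternative chosen after seeing the data (exact permutation p = 0.33). Those genes were chosen by their signal at both ends, so nothing is concluded from the smaller difference. Centred on its own median, each library has a median of 0 by construction. Of the values of single genes, 10 passed the threshold under an alternative, each without ApcMin/+ replicate 2, and 13 moved. With 5.72 fragments at the minimum in wild-type replicate 1, a weak end there cannot be told from background.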
